A study of Homo sapiens with 12 samples.

Results

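The 10 genes described here encode cyclins, the regulatory subunits that switch cyclin-dependent kinases on, together with relatives that carry the cyclin name. They are CCNA2, CCNB1, CCNB2, CCND2, CCND3, CCNE1, CCNE2, CCNF, CCNG1 and CCNG2, taken by gene symbol from the deposited signal table, and all 10 were among the 14953 genes with a probe detected on at least 3 of the 12 arrays. CCNG2 met that filter through treated and resistant arrays only. Illumina HT-12 bead arrays gave their mRNA levels in L428, an established Hodgkin lymphoma cell line. Each group held 3 samples: L428 cells resistant to ixazomib, control L428 cells, and L428 cells given 25 nM or 71.25 nM ixazomib for 24 h. Ixazomib inhibits the proteasome, the protease complex that degrades ubiquitinated proteins, cyclins among them. All groups were grown in the same serum-containing medium.

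For the resistant cells the labels state no dose, do not state whether drug was present at harvest, and do not say whether they are a single clone. One sample titled and labelled 71.25 nM has a description that names 25 nM, and it was kept with its title. Biological triplicates are stated beside the 25 nM treatment only, so p-values measure the spread of these 3 samples a group and nothing beyond it, and that spread may be technical. Each array detected 17100 to 18785 of 47227 probes, and mean signal ran from 293.2 to 326.7 on resistant arrays and from 343.5 to 400.5 on control arrays. Of 10 Hodgkin line markers, 9 were detected on all 3 resistant arrays and 10 on all 3 control arrays, and the exception was the chemokine gene CCL22, on 0 resistant arrays. None of the 7 stromal and epithelial markers was detected on all arrays of any group. The same held for 6 of 7 T cell markers. Of 8 B cell markers, 2 (CD79A and BLK) were detected on all arrays of every group, and the others, PAX5 among them, on all arrays of no group. Of 6 myeloid markers, 4 were detected on all resistant arrays and 3 on all control arrays, and MPO and CD163 on all arrays of no group. In bulk samples, fewer cells of a kind and less RNA per cell cannot be told apart.

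D-type and E-type cyclins act around the passage from G1 into S phase, cyclin A2 acts in S and G2 phase, and B-type cyclins with CDK1 drive entry into mitosis. The A-, B- and E-type proteins are made and destroyed in each division, through transcription that follows the cell cycle and through ubiquitination by the SCF and anaphase-promoting complexes. Cyclin F is an F-box protein, a substrate receptor of an SCF complex, and does not activate a kinase. Cyclins G1 and G2 are less typical members: CCNG1 is a p53 target, and CCNG2 is a target of FOXO factors that is associated with cells leaving the cycle. In dividing lymphoma cells the S, G2 and M phase cyclin genes are among the best known markers of proliferation. The arrays measure mRNA, not protein.

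The promoters of CCNA2, CCNB1, CCNB2 and CCNF are shown because these 4 genes, of the S, G2 and M phases, were lower in resistant cells. They were chosen with that result known. CCNE1 was lower in resistant cells as well, by a like amount to CCNF (-0.98 and -0.96), and its promoter is not shown. Each line holds the 120 bases before the start site, 5′ to 3′ on the gene's own strand, from RefSeq on GRCh38.p14: CCNA2 from chr4:121823884-121824003 on the minus strand, CCNB1 from chr5:69167030-69167149, CCNB2 from chr15:59105026-59105145 and CCNF from chr16:2429327-2429446, these on the plus strand.
CCNA2: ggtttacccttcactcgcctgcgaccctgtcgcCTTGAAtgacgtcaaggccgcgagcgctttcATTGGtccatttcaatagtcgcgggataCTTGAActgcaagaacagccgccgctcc
CCNB1: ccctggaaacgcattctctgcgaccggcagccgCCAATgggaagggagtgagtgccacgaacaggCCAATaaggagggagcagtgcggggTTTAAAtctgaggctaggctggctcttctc
CCNB2: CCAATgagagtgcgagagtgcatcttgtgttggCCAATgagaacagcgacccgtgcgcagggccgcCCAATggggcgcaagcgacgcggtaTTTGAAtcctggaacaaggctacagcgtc
CCNF: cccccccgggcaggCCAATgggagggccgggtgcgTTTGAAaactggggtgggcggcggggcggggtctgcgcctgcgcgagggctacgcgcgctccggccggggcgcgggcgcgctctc
Capitals mark the CCAAT box (CCAAT, or ATTGG where it lies on the other strand) and the six-letter runs TTTGAA and CTTGAA as well as TTTAAA, related to the cell cycle homology region of such promoters. The CTTGAA and the TTTAAA runs were added after the windows had been read. TTTAAA reads the same on both strands, and no motif overlaps another in these lines. CCAAT boxes began 87 and 55 bases before the start of CCNB1, and 120, 87 and 54 bases before that of CCNB2, so neighbouring boxes lay at similar spacing in both genes. CCNA2 held 1 box, on the opposite strand, and CTTGAA at 87 and 28 bases before its start. CCNF held a box at 106 and TTTGAA at 85 bases before its start, against TTTGAA at 29 bases in CCNB2. The matches are descriptions of letters, not of bound sites.

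Of the 10 genes, 8 had a window of 300 bases (250 before and 50 after the start) in the RefSeq promoter table, and CCND2 and CCNE2 are named only. CCAAT on either strand was present in 34.6% of all 35116 windows, and at least 2 copies in 10.8%. CCNB1 held 2 copies in its window, CCNB2 4 and CCNF 4. CCNG1 held 4 copies as well, so repeated boxes were not limited to the genes of the S, G2 and M phases. TTTGAA was present in 15.2% of windows, CTTGAA in 11.2% and TTTAAA in 12.2%. CCNE1, at 28 bases before its start, and CCNG2, at 73 bases, held TTTAAA and no CCAAT. Any link between these motifs and the cyclin signals was not tested.

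Across the 4 groups 9 of the 10 cyclins differed in limma's moderated F test (adjusted p at most 0.00129), against 52.7% of all genes. CCNE2 was the exception. Signals below are background corrected, quantile normalized and on the log2 scale, so that 1 unit is a 2-fold change and each change is measured relative to the rest of the genes. A gene was said to rise or fall when limma's p, with Benjamini-Hochberg adjustment across every kept probe, was under 0.05. The comparisons of 25 nM, 71.25 nM and resistant cells with control share the same 3 control arrays.

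**Figure D1:**
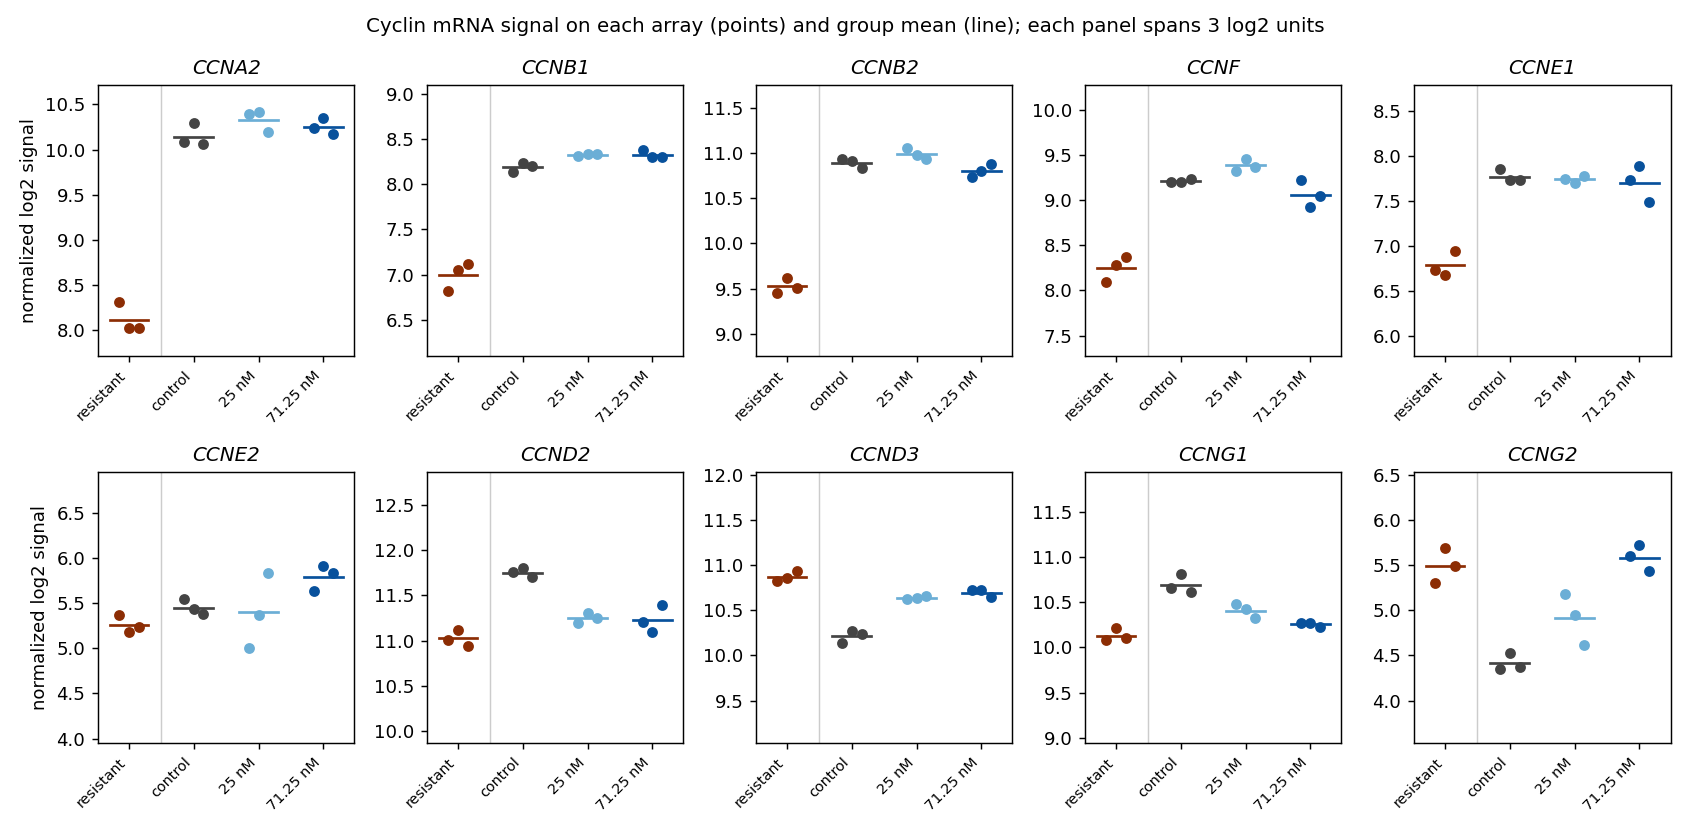
Normalized log2 signal (vertical axis, each panel spanning 3 log2 units) of each cyclin on each array, with resistant cells at the left, then control, 25 nM and 71.25 nM; points are arrays and lines are group means of 3 arrays. CCNA2, CCNB1, CCNB2, CCNF and CCNE1 are low on the resistant arrays alone, whereas CCND2, CCND3, CCNG1 and CCNG2 also sit apart from control in the treated groups.

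Cyclins of S phase and mitosis had signals near control after 24 h of drug and were much lower in resistant cells. CCNA2, whose product binds CDK2 and CDK1, had 8.31, 8.02 and 8.02 on the resistant arrays, against 10.08, 10.29 and 10.06 on control arrays. It had 10.39, 10.41 and 10.19 at 25 nM and 10.24, 10.35 and 10.17 at 71.25 nM. Every resistant array thus lay below every other array, and the treated groups overlapped with control. The fall in resistant cells was -2.03 ± 0.12 (SE, n = 3 per group; limma adjusted p = 1.21e-08), which left 24.5% of the control signal. Before background correction the mean signal of CCNA2 was 313.4 in resistant cells and 1352.5 in control cells. Only 0.261% of all genes had a lower difference in that comparison.

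CCNB1, the main mitotic cyclin, had 6.82, 7.05 and 7.12 on resistant arrays, against 8.14, 8.24 and 8.20 on control arrays. It had 8.31, 8.34 and 8.33 at 25 nM and 8.38, 8.30 and 8.30 at 71.25 nM. The treated arrays all lay slightly above the control arrays, by 0.13 ± 0.10 at each dose (SE), and neither difference passed the test (limma adjusted p = 0.368 at 25 nM and 0.327 at 71.25 nM). In resistant cells CCNB1 fell to 43.6% of control (-1.20 ± 0.10 SE, limma adjusted p = 3.83e-07).

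CCNB2, the second B-type cyclin, was likewise lowest in resistant cells. Its signals were 9.45, 9.62 and 9.51 in resistant cells, against 10.94, 10.91 and 10.83 in control cells. They were 11.06, 10.98 and 10.93 at 25 nM and 10.74, 10.80 and 10.88 at 71.25 nM. The resistant arrays overlapped with no other group. CCNB2 fell to 38.8% of control in resistant cells (-1.37 ± 0.09 SE, limma adjusted p = 7.11e-08), and its differences of 0.10 at 25 nM and -0.09 at 71.25 nM did not pass (adjusted p = 0.516 and 0.527).

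CCNF, the F-box cyclin that directs ubiquitination in G2 phase, had 8.09, 8.28 and 8.37 on resistant arrays, against 9.20, 9.20 and 9.23 on control arrays. It had 9.32, 9.46 and 9.37 at 25 nM and 9.22, 8.92 and 9.04 at 71.25 nM. The resistant arrays did not overlap with any other group, and the 25 nM arrays were the highest. The fall in resistant cells was -0.96 ± 0.11 (SE, limma adjusted p = 6.99e-06), to 51.4% of control. All 3 arrays at 71.25 nM lay below all 3 at 25 nM, yet the difference of -0.32 ± 0.11 did not pass (limma adjusted p = 0.105); it passed in 6 of 19 alternative settings, with values from -0.40 to -0.25 over all 19.

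The E-type cyclins, partners of CDK2 at the start of S phase, differed from each other. CCNE1 had 6.74, 6.68 and 6.95 on resistant arrays, against 7.85, 7.73 and 7.73 on control arrays. It had 7.74, 7.70 and 7.78 at 25 nM and 7.73, 7.89 and 7.49 at 71.25 nM, so on this brightest probe only the resistant arrays stood apart. It fell to 50.7% of control in resistant cells (-0.98 ± 0.12 SE, limma adjusted p = 1.09e-05). Of its 4 probes, 3 passed in that comparison, with the other bright probes at -0.79 and -0.66, and the dimmest, detected on 8 of 12 arrays, was at -0.41 (limma adjusted p = 0.13). Those other bright probes differed from control by 0.16 and 0.29 at 25 nM (limma adjusted p = 0.414 and 0.103). At 71.25 nM each differed by 0.23 (limma adjusted p = 0.164 and 0.172), so none of these differences passed.

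CCNE2 was dim in every group, with deposited signals of 115.1 in resistant cells and 128.4 in control cells. Its log2 signals were 5.37, 5.18 and 5.23 in resistant cells, against 5.54, 5.43 and 5.38 in control cells. They were 5.00, 5.37 and 5.83 at 25 nM, the widest spread of any cyclin within a group (SD 0.41), and 5.63, 5.91 and 5.83 at 71.25 nM. No difference of CCNE2 from control passed the test: it was -0.05 at 25 nM (95% interval -0.40 to 0.31), 0.34 at 71.25 nM (-0.01 to 0.70) and -0.19 in resistant cells (-0.55 to 0.17), with limma adjusted p of 0.876, 0.123 and 0.391. A second CCNE2 probe was not detected on any array.

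The D-type cyclins, which bind CDK4 and CDK6 and link growth signals to G1 phase, moved in opposite directions. CCND2 had 11.01, 11.12 and 10.94 on resistant arrays, against 11.76, 11.80 and 11.70 on control arrays. It had 11.19, 11.31 and 11.25 at 25 nM and 11.21, 11.09 and 11.39 at 71.25 nM. Every array of these 3 groups lay below every control array. CCND2 fell to 60.5% of control in resistant cells (-0.73 ± 0.10 SE), to 70.7% at 25 nM (-0.50 ± 0.10) and to 69.8% at 71.25 nM (-0.52 ± 0.10), with limma adjusted p of 5.69e-05, 0.0029 and 0.0013. A second CCND2 probe fell further, by 0.68 at 25 nM, by 0.92 at 71.25 nM and by 1.12 in resistant cells.

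CCND3 had 10.83, 10.86 and 10.93 on resistant arrays, against 10.14, 10.27 and 10.24 on control arrays. It had 10.62, 10.64 and 10.66 at 25 nM and 10.72, 10.72 and 10.65 at 71.25 nM. Control was the lowest group and resistant the highest, with no overlap between them. CCND3 rose in resistant cells (0.66 ± 0.09 SE), at 25 nM (0.43 ± 0.09) and at 71.25 nM (0.48 ± 0.09), with limma adjusted p of 3.48e-05, 0.00308 and 0.000744. The size of these rises depends on the scaling: with arrays scaled to their medians they were 0.31, 0.36 and 0.34, and none passed (limma adjusted p = 0.119, 0.107 and 0.0996).

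The G-type cyclins also moved in opposite directions. CCNG1 had 10.08, 10.21 and 10.10 on resistant arrays, against 10.66, 10.81 and 10.61 on control arrays. It had 10.48, 10.42 and 10.32 at 25 nM and 10.27, 10.27 and 10.23 at 71.25 nM. Control lay above all other groups, and the group means were lower at the higher dose than at the lower one. CCNG1 fell to 67.6% of control in resistant cells (-0.56 ± 0.10 SE), to 81.9% at 25 nM (-0.29 ± 0.10) and to 73.9% at 71.25 nM (-0.44 ± 0.10), with limma adjusted p of 0.000264, 0.0416 and 0.00263. The call at 25 nM was lost in 8 of 18 alternative settings. A second CCNG1 probe was not detected on any array.

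CCNG2 was near the detection limit, with none of 3 control arrays detected, 2 of 3 at 25 nM, and all 3 at 71.25 nM and in resistant cells. Its log2 signals were 5.30, 5.69 and 5.49 on resistant arrays, against 4.35, 4.53 and 4.37 on control arrays. They were 5.18, 4.95 and 4.62 at 25 nM and 5.60, 5.72 and 5.43 at 71.25 nM. Control was the lowest group and overlapped with no other. Because control was not above background, the rises are bounds: at least 1.52-fold in resistant cells, at least 1.02-fold at 25 nM and at least 1.62-fold at 71.25 nM. Each bound sets the group's mean against the higher of control's own signal and the lowest detected signal on each control array. The fitted differences were 1.07 ± 0.15, 0.50 ± 0.15 and 1.17 ± 0.15 (SE), with limma adjusted p of 4.09e-05, 0.0228 and 3.23e-05. The call at 25 nM was lost in 6 of 17 alternative settings, and its value there ran from 0.19 to 0.65. The rise at 71.25 nM passed in all 18 alternatives (0.41 to 1.32), as did that of resistant cells in all 17 (0.38 to 1.37). The probes of CCNG2 disagree: the other one, detected on 5 of 12 arrays, differed from control by 0.31, 0.00 and 0.18, none of which passed (limma adjusted p = 0.232, 0.995 and 0.534).

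**Figure D2:**
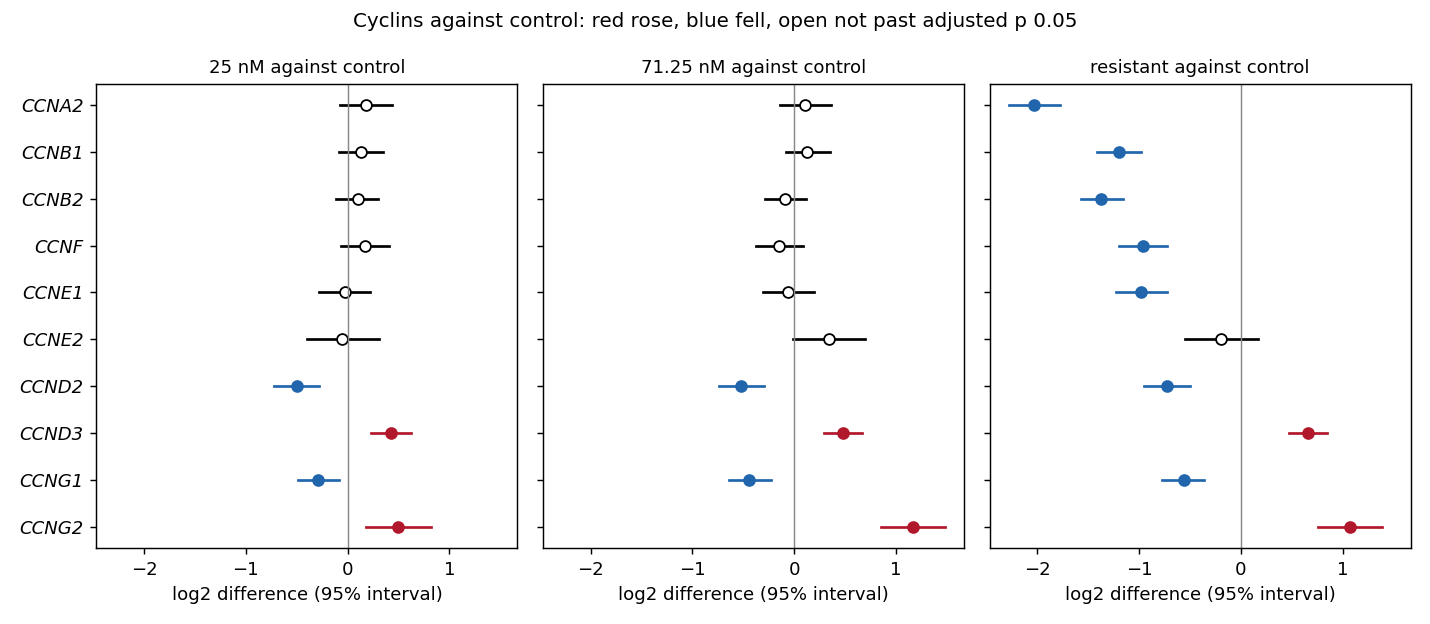
Log2 difference from control (horizontal axis) of each cyclin at both doses, the lower one first, and then in resistant cells; points are limma estimates from 3 arrays per group, bars are 95% intervals, red points rose, blue points fell and open points did not pass an adjusted p of 0.05. No interval of the 6 genes from CCNA2 to CCNE2 excludes 0 at either dose, and 5 of these genes lie at or below -0.96 in resistant cells; control was not above background for CCNG2.

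At 25 nM, 4 of the 10 cyclins passed the test, CCND3 and CCNG2 up and CCND2 and CCNG1 down, where 27% of all genes passed (13.3% up and 13.7% down). At 71.25 nM the count was 4 again, with the same genes in the same directions, where 39% of all genes passed (19.4% up and 19.6% down). The groups did not overlap for 6 cyclins at each dose, nor for 42% of all genes at 25 nM and 48.1% at 71.25 nM. CCNG2 entered the test through the groups where it is high, and of the 9 cyclins detected in control as well as in treated cells, 3 passed at each dose. These shares are not far from those of all genes. The median difference of the 10 was 0.12 at 25 nM and 0.02 at 71.25 nM, against -0.002 and -0.006 for all genes. For CCNA2, CCNB1, CCNB2, CCNE1 and CCNF, which did not pass at either dose, the 95% intervals at 71.25 nM together ran from -0.38 (CCNF) to 0.36 (CCNA2). Beside these values, the summed normalized signal of 10 Hodgkin line markers was 36277 to 41690 on control arrays, 36151 to 37140 at 25 nM and 22942 to 26248 at 71.25 nM. That of 5 kept B cell markers was 584 to 650, 426 to 467 and 285 to 308 in the same order, and that of 4 kept myeloid markers was 139 to 196, 155 to 177 and 147 to 184. The part of these markers was not tested.

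In resistant cells 9 of 10 cyclins differed from control, where 47.1% of all genes did. CCNA2, CCNB1, CCNB2, CCND2, CCNE1, CCNF and CCNG1 fell, 7 genes where 24.1% of all genes fell, and CCND3 and CCNG2 rose, where 23% of all genes rose. Without CCNG2, which entered the test through the groups where it is high, 8 of 9 differed. The median difference of the 10 was -0.84, against -0.02 for all genes, and 3 of the 7 falls exceeded 2-fold. The arrays of the groups did not overlap for 10 of 10 cyclins, nor for 53.8% of all genes. Those 10 include CCNG2, and also CCNE2, which was not called. The highest resistant array of CCNE2 was at 5.37 and its lowest control array at 5.38. Beside these falls, the summed normalized signal of the 4 kept myeloid markers was 207 to 254 on resistant arrays and 139 to 196 on control arrays, that of 5 kept B cell markers 315 to 358 and 584 to 650, and that of 10 Hodgkin line markers 30860 to 34400 and 36277 to 41690; the part of these markers in the results was not tested.

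**Figure D3:**
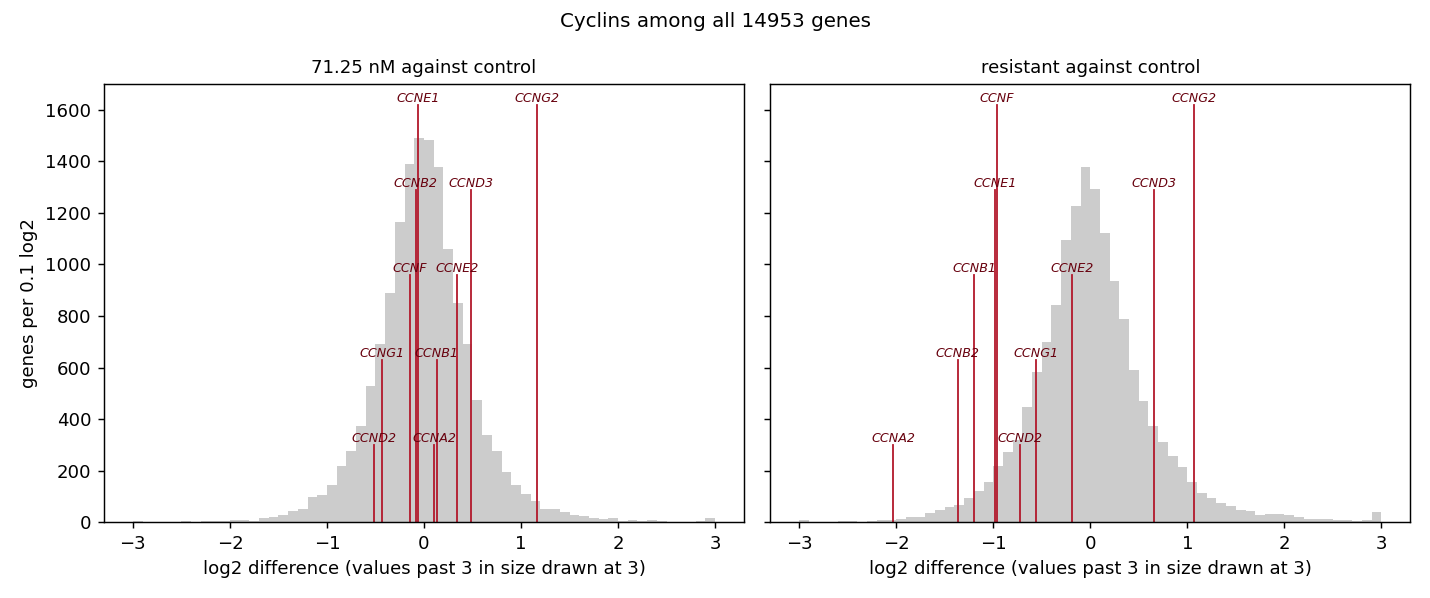
Histograms of the log2 difference of 14953 genes at 71.25 nM and in resistant cells, each against control (horizontal axis; vertical axis, genes per 0.1 log2 unit), with red lines at the cyclins, whose heights carry no meaning. At 71.25 nM CCND2 at -0.52 is the lowest cyclin and CCNG2 at 1.17 the highest, while in resistant cells CCNA2 lies at -2.03 in the far left of the distribution.

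Between the doses 1 of 10 cyclins passed, where 5.86% of all genes did (2.98% up and 2.88% down), and the groups did not overlap for 4, nor for 29.2% of all genes. It was CCNG2, which was higher at 71.25 nM than at 25 nM by 0.67 ± 0.15 (SE, limma adjusted p = 0.0191). That call was lost in 6 of 18 alternative settings, among them the authors' values without the sample whose description names 25 nM (0.22, limma adjusted p = 0.0877). The other 9 cyclins differed by -0.32 to 0.39, and CCNE2, at the upper end, had a 95% interval of 0.03 to 0.75 and a limma adjusted p of 0.192. CCNA2, CCNB1, CCND2, CCND3 and CCNE1 differed by at most 0.08 in size between the doses.

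Resistant cells were also set against the cells given 71.25 nM, a comparison without the control arrays. There 6 of 10 cyclins passed, where 21.5% of all genes did, and all 6 fell, where 10.3% of all genes fell and 11.3% rose. The groups did not overlap for 8 of 10, nor for 37.9% of all genes. CCNA2 was lower by -2.14 ± 0.12, CCNB1 by -1.33 ± 0.10 and CCNB2 by -1.28 ± 0.09 (SE), with limma adjusted p of 1.16e-07, 9.91e-07 and 9.72e-07. CCNE1 (-0.92 ± 0.12), CCNF (-0.81 ± 0.11) and CCNE2 (-0.53 ± 0.17) fell as well (limma adjusted p = 8.6e-05, 0.00013 and 0.0353). The call of CCNE2 was lost in 8 of 19 alternative settings. The genes that also differed from control in treated cells showed no called difference here: CCND2 was at -0.21 (95% interval -0.43 to 0.02), CCND3 at 0.18 (-0.01 to 0.37), CCNG1 at -0.13 (-0.33 to 0.08) and CCNG2 at -0.10 (-0.41 to 0.22). Resistant cells were not set against 25 nM here.

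**Figure D4:**
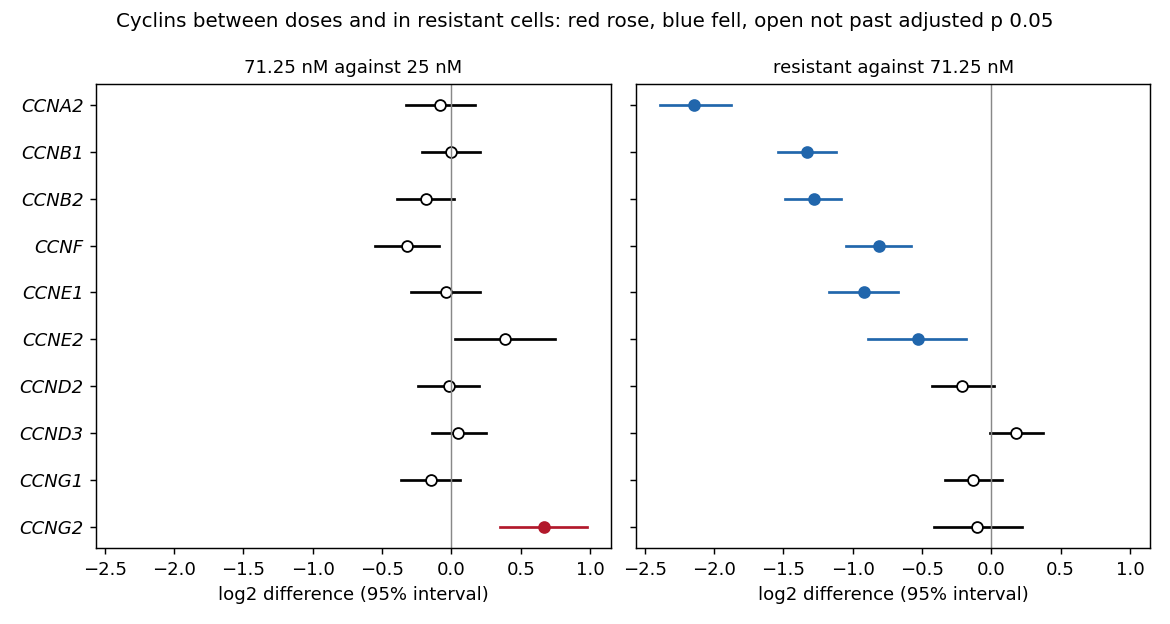
Log2 difference (horizontal axis) of each cyclin at 71.25 nM against 25 nM and in resistant cells against 71.25 nM, with 95% intervals from limma on 3 arrays per group; filled points passed an adjusted p of 0.05 (red rose, blue fell) and open points did not. CCNG2 alone is filled between the doses, and the 6 genes from CCNA2 to CCNE2 are filled in resistant cells.

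The directions were read under other scalings of the arrays. Scaling to array medians put the median of all genes in resistant cells against control at -0.14, and scaling to 10 housekeeping genes, chosen after the data had been seen, put it at 0.19. Relative to that median the differences are equal under both scalings by construction: -2.21 for CCNA2, -1.60 for CCNB2, -1.29 for CCNB1, -1.13 for CCNF, -1.05 for CCNE1, -0.96 for CCND2, -0.79 for CCNG1, 0.45 for CCND3 and 1.17 for CCNG2. At 71.25 nM against control the housekeeping scaling put the median of all genes at 0.11. Of the genes called in resistant cells against control, 48.8% rose under quantile normalization, 30.5% under median scaling and 64.4% under housekeeping scaling. With the scalings in the same order, 49.7%, 42.2% and 61.7% of calls rose at 71.25 nM against control, and 50.8%, 43.5% and 65.7% between the doses. In resistant cells against 71.25 nM the shares of calls that rose were 52.4%, 27% and 59.2%.

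The genes whose signals ran most like the 3 cyclins with the widest range of group means were found by the root mean square difference between centred log2 values over the 12 arrays. For CCNA2 these were CDCA3 (0.198), a gene of mitotic entry, SPC25 (0.209), a kinetochore subunit, and KIF20A (0.248), a mitotic kinesin. For CCNB2 they were KIF14 (0.084), a kinesin of cytokinesis, TK1 (0.097), thymidine kinase, and UBE2C (0.097), the ubiquitin-conjugating enzyme of the anaphase-promoting complex. For CCNB1 they were PLK4 (0.060), the kinase of centriole duplication, UBE2C (0.1) and KIF14 (0.108). The differences of PLK4 from control were 0.11 and 0.16 at the lower and the higher dose and -1.12 in resistant cells, beside 0.13, 0.13 and -1.20 for CCNB1. KIF20A differed from control by 0.58 at 25 nM, where CCNA2 was at 0.18, so the likeness for CCNA2 was looser than for the B-type cyclins.

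Genes around the cyclins were read as 5 lists, described by counts and medians. Of all genes, 23% rose and 24.1% fell in resistant cells against control, 19.4% and 19.6% at 71.25 nM, and 13.3% and 13.7% at 25 nM, and each count below stands against these shares. Of 15 other cyclins and cyclin-related genes measured, 4 rose and 3 fell in resistant cells against control (median 0.15, and -0.04 to 0.29 over the alternatives). CCNYL1 rose by 1.01 and CCNK, the partner of CDK12, by 0.77. CCNY, a membrane-bound cyclin, fell by 1.04, and CCNL2, a splicing-related cyclin, fell by 0.93. At 71.25 nM 6 rose and 3 fell, with CCNK at 0.81, CCNYL1 at 0.69, CCNY at -0.85 and CCND1 at -0.81. CCND1, the third D-type cyclin, was higher in resistant cells than at 71.25 nM by 1.25 (limma adjusted p = 1.74e-05) and was higher than control by 0.44 in resistant cells (adjusted p = 0.0143). At 25 nM 3 rose and 2 fell.

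Of 21 cyclin-dependent kinase and CKS genes, 2 rose and 9 fell in resistant cells against control. The median was -0.17 and ran from -0.31 to 0.03 over the alternatives, so its sign depends on the setting. CDC2, the deposited symbol of CDK1 and partner of the B-type cyclins, fell in resistant cells to 0.33 of its control signal (-1.60 ± 0.17 SE, limma adjusted p = 3.09e-06), and CDK4, partner of the D-type cyclins, fell by 0.69. CCRK, now named CDK20, rose by 0.77 (0.23 and not passed on its other probe) and CDC2L1, now CDK11B, by 0.34. At 71.25 nM 7 rose and 2 fell, with CKS1B, a kinase-binding subunit that also serves SKP2, at 0.69, CDC2L1 at 0.60, CDK5 at -0.73 and CDK10 at -0.37. Other kept probes of CDK10 were at -0.29 and 0.04 there, and neither passed (limma adjusted p = 0.149 and 0.851). At 25 nM 2 rose and 2 fell.

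Of 13 activators and brakes of the kinases, 5 rose and 6 fell in resistant cells against control (median -0.29). The brightest CDKN2C probe entered the test through the groups where it is high. With only probes detected on all 12 arrays, 11 of these genes were measured. Of those, 3 rose and 0 fell at 25 nM, 5 rose and 2 fell at 71.25 nM, and 3 rose and 6 fell in resistant cells. CDKN1A, which encodes the inhibitor p21, rose in resistant cells by 3.38 ± 0.10 (SE; limma adjusted p = 2.3e-11). CDKN2C encodes the CDK4 and CDK6 inhibitor p18, and its brightest probe was detected on all 3 resistant arrays and on 0 control arrays (means 8.18 and 4.53). That probe rose by at least 9.84-fold in resistant cells and at least 4.6-fold at 71.25 nM (limma adjusted p = 3.36e-09 and 2.17e-07). Another CDKN2C probe, detected on 0 resistant arrays and 1 control array, differed by -0.36 in resistant cells and 0.17 at 71.25 nM (limma adjusted p = 0.0811 and 0.45), so the probes disagree. PLK1, a mitotic kinase, fell by 2.06 and PKMYT1, an inhibitory kinase of CDK1, fell by 1.54. At 71.25 nM 6 rose and 2 fell, with CDKN1A at 2.07, PLK1 at -0.57 and PKMYT1 at -0.36. Another PKMYT1 probe was at -0.2 there and did not pass (limma adjusted p = 0.171). At 25 nM 4 passed, each of them higher than control, among them CDKN1A at 1.77 and the brightest CDKN2C probe at a bound of at least 1.57-fold (limma adjusted p = 0.00125).

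Of 25 genes of cyclin ubiquitination, 3 rose and 14 fell in resistant cells against control (median -0.36). CDC20, the activator of the anaphase-promoting complex in mitosis, fell by 1.87, and FBXO5, an inhibitor of that complex, fell by 1.68 (limma adjusted p = 1.85e-08 and 2.68e-08). Another FBXO5 probe fell less, by 0.72 (limma adjusted p = 0.00397). CRYAB, a partner of FBXO4 in cyclin D1 turnover, rose by at least 1.29-fold from a control without a detected array (means of 5.26 in resistant cells and 4.36 in control), and FBXW7, the receptor for cyclin E, rose by 0.40, while its other kept probes differed by 0.05 and 0.18 and did not pass. At 71.25 nM 2 passed as higher and 11 fell, but CRYAB, 1 of the 2, was detected on no array of either group there (means 4.77 and 4.36). The falls were led by FBXO4 at -0.90 and ANAPC4 at -0.81. At 25 nM 5 passed, each of them lower than control, led by FBXO4 at -0.67 and ANAPC4 at -0.64. Another FBXO4 probe was at -0.52 there and did not pass (limma adjusted p = 0.0636).

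Of 24 transcription factors that act on cyclin genes, 4 rose and 12 fell in resistant cells against control (median -0.33). E2F2, an activator of S phase genes, fell by 2.67 ± 0.14, and TFDP1, the dimer partner of E2F factors, fell by 1.62 ± 0.10 (SE; limma adjusted p = 3.54e-09 and 2.11e-08). E2F6, a repressor of the E2F family, rose by 1.11, and LIN37, a subunit of the DREAM complex that represses cell cycle genes, rose by 0.94. At 71.25 nM 5 rose and 4 fell, with LIN37 at 0.91, LIN54, the DNA-binding subunit of the same complex, at 0.64, E2F2 at -1.26 and TFDP1 at -0.69. E2F2 and TFDP1 were lower than control at 71.25 nM, and CCNA2 and CCNE1 showed no called difference there. Any link between these factors and the cyclin signals was not tested. At 25 nM 6 rose and 3 fell.

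**Figure D5:**
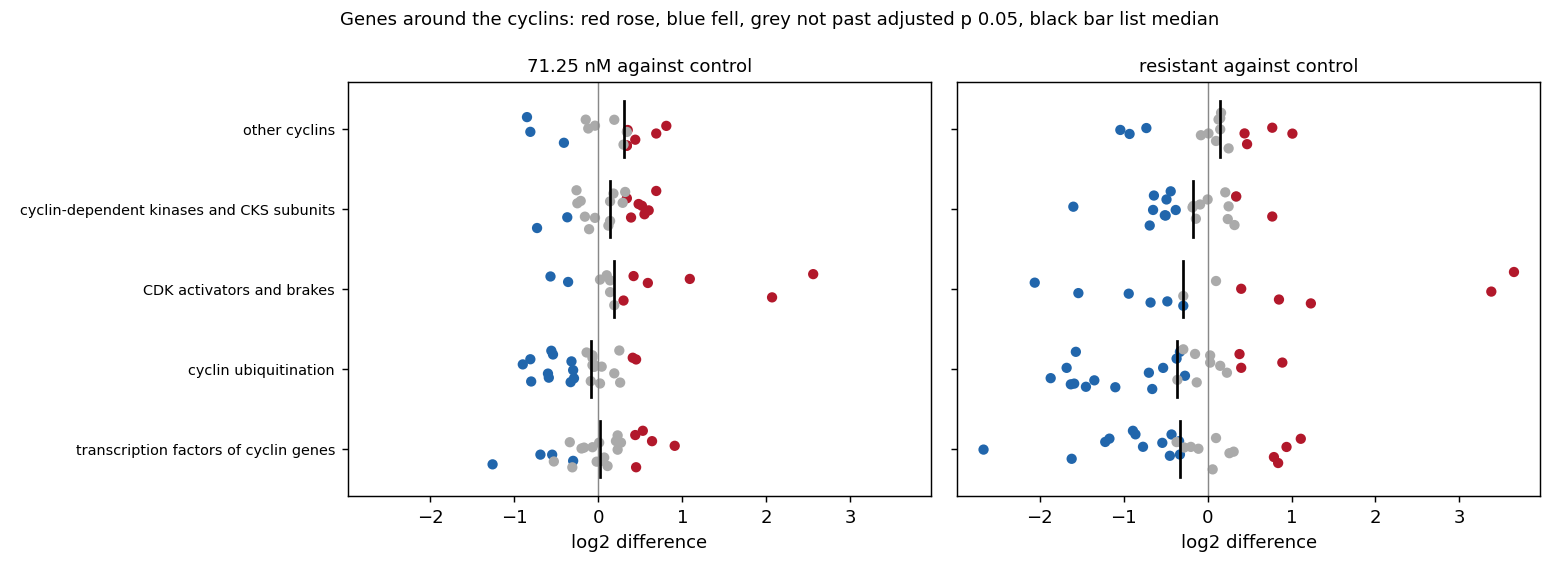
Log2 difference from control (horizontal axis) of the genes in 5 lists at 71.25 nM and in resistant cells; each point is a gene (red rose, blue fell, grey did not pass an adjusted p of 0.05), vertical scatter within a list has no meaning, and black bars are list medians. The brightest CDKN2C probe and CDKN1A lie farthest right in both panels, and E2F2 and PLK1 lie farthest left in resistant cells; points whose control was not above background, such as CDKN2C and CRYAB, are drawn at the fitted value.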

How the data were processed

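The members and gene lists were chosen with earlier results of these data known. Per the deposited table, each array gives a mean bead intensity per probe, neither background corrected nor normalized, and a detection p-value. Per the series' design text, the authors corrected the processed intensity values with housekeeping genes and then quantile normalized them. They were used here only as an alternative. Groups were taken from titles. Signal columns carry a group and an array number that no label ties to a replicate number.

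Background was corrected by limma's normexp model (negative controls inferred from detection p-values, offset 16), followed by quantile normalization and log2. Probes detected at p under 0.05 on at least 3 of 12 arrays were kept (20414 of 47227). Of the kept probes, 1195 named no gene and stayed in the fit. The brightest kept probe stood for a gene. Of 17 cyclin probes, 15 were kept. Limma 3.58.1 in R 4.3.3 fitted 1 mean per group over 12 arrays (8 residual and 5.5 prior degrees of freedom). Two-sided moderated p-values were adjusted by Benjamini-Hochberg over all kept probes. The number of arrays limits precision: log2 differences had a median standard error of 0.14, and an exact permutation test of 3 arrays against 3 cannot go below p = 0.1. The fit was tested on simulated data. Plots used matplotlib 3.10.9, numpy 2.4.6 and pandas 2.3.3 in Python 3.11.15. Named genes are the 10 members and, for each list and comparison against control, up to 2 of the largest rises and 2 of the largest falls. The values of CCND1 in resistant cells, against 71.25 nM and against control, were added outside that rule. KIF20A and other genes of like pattern follow from the smallest root mean square difference. Symbols are as deposited, and some are old. Promoter motifs and the 4 promoters shown were chosen after seeing the data.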

Additional observations from a re-analysis of the deposited data

How the results depend on the processing

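The alternatives changed the background correction, scaling, filter, probe rule, prior and input values, and left out each array in turn. Over 50 cyclin differences, 859 recomputed values kept their direction and side of the threshold, 31 lost a call, 10 gained one and 25 changed sign, none of which passed the test before or after. The cause was not tested. The count of cyclins called at 25 nM against control was 2 with median scaling, and 2 to 3 with 1 array left out (2 without control array 1 or 25 nM array 4 or 5, against 4 with all arrays). Between the doses it was 2 with no background correction, with a background offset of 50, with a trended and robust prior, with the authors' values, and with the authors' values and the replicate number as a block. It was 0 with probes detected on all 12 arrays, which leaves 9 cyclins and removes CCNG2, and 0 with the mean of a gene's probes. With 1 array left out it was 0 to 1, and 0 without 25 nM array 5 or 71.25 nM array 7 or 8. With 1 array left out, 4 cyclins were called at 71.25 nM against control, 9 in resistant cells against control, 5 to 6 in resistant cells against 71.25 nM, and 9 to 10 across the groups. Replicate numbers of the labels reach only the authors' values. There the 18 same-numbered pairs correlated from -0.29 to 0.16, and 3 of 12 samples correlated best with their own number. No shared effect of the number was seen, but these correlations cannot show whether same-numbered samples were handled together.

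The sign changes were as follows. Median scaling put CCNA2 at 71.25 nM against control at -0.03, CCND3 between the doses at -0.02 and CCND3 in resistant cells against 71.25 nM at -0.03. Housekeeping scaling put CCNE1 at 0.02 and CCNE2 at 0.02 at 25 nM against control, CCNE1 at 71.25 nM against control at 0.03, CCNE2 in resistant cells against control at 0.11, CCNB1 and CCNE1 between the doses at 0.02 and 0.01, and CCNG2 in resistant cells against 71.25 nM at 0.04. The mean of probes put CCNE1 at 0.12 and 0.13 against control at 25 and 71.25 nM and at 0.00 between the doses, and CCNG2 in resistant cells against 71.25 nM at 0.02. With 1 array left out, values ran across 0 for CCNE1 (-0.05 to 0.01 at 25 nM and -0.16 to 0.04 at 71.25 nM against control, -0.13 to 0.07 between the doses), CCNE2 (-0.26 to 0.15 at 25 nM against control), CCNB1 (-0.03 to 0.01) and CCND2 (-0.10 to 0.05) between the doses, and CCNG2 (-0.20 to 0.00 in resistant cells against 71.25 nM). Signal near background limits CCNE2 and CCNG2.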
